A study of Homo sapiens with 6 samples.

Results

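The table of gene expression values holds 16715 distinct identifiers, and 1264 of them carry a name that starts with Homo_sapiens_newGene followed by a number. These 1264 newGene loci are transcribed regions that the authors listed without an Ensembl gene identifier, and they were selected by that name alone, not by any measured value. They are written here as newGene_ with their number. The other 15451 identifiers are Ensembl genes, of which 15410 are protein-coding in GENCODE release 29 and 16 are long non-coding RNA genes. RNA came from HCT116 cells, an established human colorectal carcinoma line at passage 7-10, in 3 control and 3 5aza libraries. The 5aza cells received 5 µM of the compound over 48 hours and then spent 48 hours in fresh medium. The labels do not say what the control cells received, and nothing in them says that the 3 libraries of a group came from separate cultures, so the p-values measure the spread between these libraries only. The table's columns carry the code DAC for the treated libraries, whereas the titles have 5aza, which is the name used here.

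RNA sequencing finds many transcribed regions outside annotated genes, among them long non-coding RNAs, transcripts that start in repeated elements, and extensions or fragments of known genes. DNA methylation at promoters and at repeated elements holds many such start sites silent. Azanucleosides such as 5aza enter nucleic acids, trap DNA methyltransferases and so lead to loss of methylation as cells divide, and transcription from sites without annotation is known to appear in treated cancer cells. What each newGene locus is (its position, strand, length, exons or sequence) is missing from the sources used here, so no locus can be assigned to any of these kinds. The name says only that the locus was given no Ensembl identifier. Whether a newGene locus overlaps an annotated non-coding gene was not tested.

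Values are FPKM, fragments scaled by transcript length and by the number of mapped fragments, as deposited. The summed FPKM per library lay between 577735 and 628399. The sources used here do not give total fragments per library, so the depth behind a single value is unknown and no limit is given for values listed at 0. Of 10 marker genes of colon epithelium, 6 were at 1 FPKM or more in all 6 libraries, among them EPCAM (control mean 166 FPKM) and KRT8 (984 FPKM), while VIL1, CDH17 and LGALS4 stayed under 1 FPKM in all 6. The 5 blood cell markers in the table were under 1 FPKM in every library. Of 6 endothelial and fibroblast markers, COL1A1 alone reached 1 FPKM, with a highest value of 7.24.

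The newGene loci were weakly transcribed in control cells. Their median control mean was 0.540 FPKM, against 7.47 FPKM for Ensembl genes, and the middle 50% of newGene loci lay between 0.219 and 1.48 FPKM. After 5aza, the median of the newGene means was 0.646 FPKM, against 7.65 FPKM for Ensembl genes. Taken in replicate order, the median newGene values of the control libraries were 0.536, 0.557 and 0.551 FPKM. Those of the treated libraries were 0.618, 0.646 and 0.644 FPKM, and every 5aza library was above every control library. The same held for the Ensembl medians, with 7.37, 7.48 and 7.47 FPKM in control and 7.59, 7.70 and 7.56 FPKM in 5aza libraries. In these bulk libraries, a higher level in each cell and a larger share of cells with the transcript cannot be told apart.

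Fewer newGene loci were listed at 0 after 5aza. There were 68, 58 and 64 such loci in the control cells (replicate order, as everywhere below) against 23, 14 and 19 in the 5aza cells. Ensembl genes listed at 0 also went down, from 1599 to 1693 per control library to 741 to 778 per 5aza library. The number of newGene loci at 1 FPKM or more was 430, 430 and 446 without the compound, against 464, 467 and 459 with it. At 5 FPKM or more there were 105, 106 and 106 newGene loci in control cells against 116, 118 and 116 in 5aza cells. The groups did not overlap in any of these counts. Ensembl genes at 5 FPKM or more also became more frequent, with 8672 by the control mean and 8788 by the 5aza mean. By the same group means, rather than single libraries, newGene loci at that level numbered 110 and 114. At 1 to 5 FPKM, the group means gave 326 and 350 newGene loci, and 2196 and 2288 Ensembl genes. In all, 32 newGene loci were listed at 0 in all 3 control libraries, and 0 in all 3 5aza libraries.

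**Figure D1:**
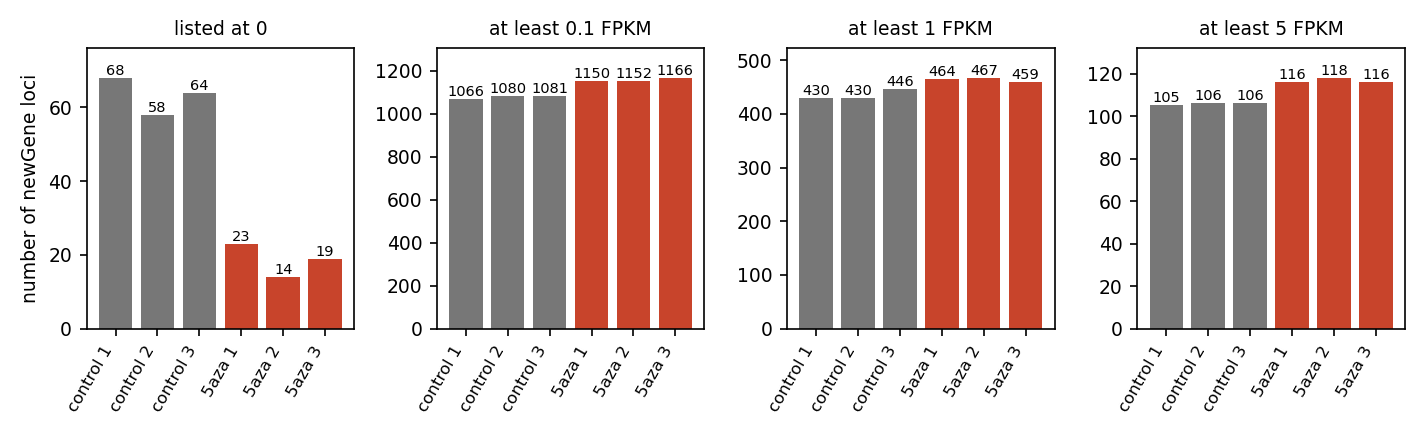
Number of newGene loci, of 1264, that were listed at 0, or reached 0.1, 1 or 5 FPKM, in each library (grey bars, control; red bars, 5aza; each panel has its own scale from 0). The 5aza libraries hold 14 to 23 loci at 0, all below the 58 to 68 of the control libraries, and more loci than any control library at each of the 3 levels.

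As a share of all RNA in the table, the newGene loci stayed small. They made up 0.871%, 1.06% and 0.922% of the summed FPKM of control cells. In 5aza cells they made up 0.975%, 1.00% and 0.934%, so the groups overlapped. A single locus, newGene_1865, took between 24.6% and 38.6% of the newGene total. Without newGene_1865, which was left out after its values were seen, the share was 0.642%, 0.649% and 0.668% for control against 0.696%, 0.690% and 0.704% for 5aza, and the groups did not overlap. The newGene sums behind these shares did overlap, with 4008, 4077 and 4023 FPKM in control and 4122, 4037 and 4068 FPKM in 5aza cells. The total of the table was lower in 5aza cells (577735 to 592051 FPKM) than in control cells (601916 to 628399 FPKM). The 10 most abundant newGene loci held 55.1% to 66.1% of the newGene total, so sums over the loci describe few of them.

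Setting 5aza against control cells asks which transcribed loci change after DNA methyltransferases are blocked. Of the 1264 newGene loci, 729 (57.7%) had at least 0.5 FPKM in at least 3 libraries and were tested, beside 11631 Ensembl genes in the same fit. Of these 729, 67 rose and 17 fell (limma on log2(FPKM + 0.1), adjusted p under 0.05 after Benjamini-Hochberg adjustment over all rows tested), and 645 did not pass. The rises are 9.19% of the tested loci, where 10.6% of all rows tested rose. The falls are 2.33% of the tested loci, where 13.1% of all rows tested fell. Rises made up 79.8% of newGene calls and 43.7% of Ensembl calls. The filter counts any 3 of the 6 libraries and so treats the groups alike. A locus that passed it through 1 group only could change in 1 direction only. There were 37 such loci through 5aza and 2 through control libraries. With no filter and all 1264 loci tested, 100 rose and 18 fell. Of the 67 rises, 34 were loci under 0.5 FPKM in all control libraries, which could be tested only because of their 5aza values, and 1 of the 17 falls was tested only because of its control values. Among the 690 tested loci that were in neither position, 33 rose and 16 fell, beside 1100 and 1601 of 11465 Ensembl genes. The split also depends on scaling: rises were 52.7% of newGene calls (49 rises, 44 falls) under quantile normalization and 59.8% (49 rises, 33 falls) once the dependence of fold change on expression level was removed.

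The median log2 fold change of the tested newGene loci was 0.07, against -0.01 over all rows tested. It turned to -0.14 under quantile normalization and to -0.08 with the expression trend removed. Of the 67 rises, 40 were at least 2-fold on the log2(FPKM + 0.1) scale, 5.49% of the tested loci, where 2.17% of all rows tested passed that bound. Of the 17 falls, 4 were at least 2-fold, 0.549% of the tested loci, where 0.0485% of all rows did. Of the 40 large rises, 33 were tested only because of their 5aza values. For these 33, passing the filter fixed the direction. Apart from loci tested through 1 group only, 7 rises and 3 falls were at least 2-fold. The median rise was 1.60 and the median fall 0.59 in absolute log2 units. All 84 called loci had groups that did not overlap. For the 34 rises and 1 fall tested through 1 group only, passing the filter fixed this. Over all tested newGene loci, the 5aza libraries were all higher in 117 (16%, against 19.6% of all rows tested) and all lower in 50 (6.86%, against 22.6%). These include the 37 and 2 loci tested through 1 group only.

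**Figure D2:**
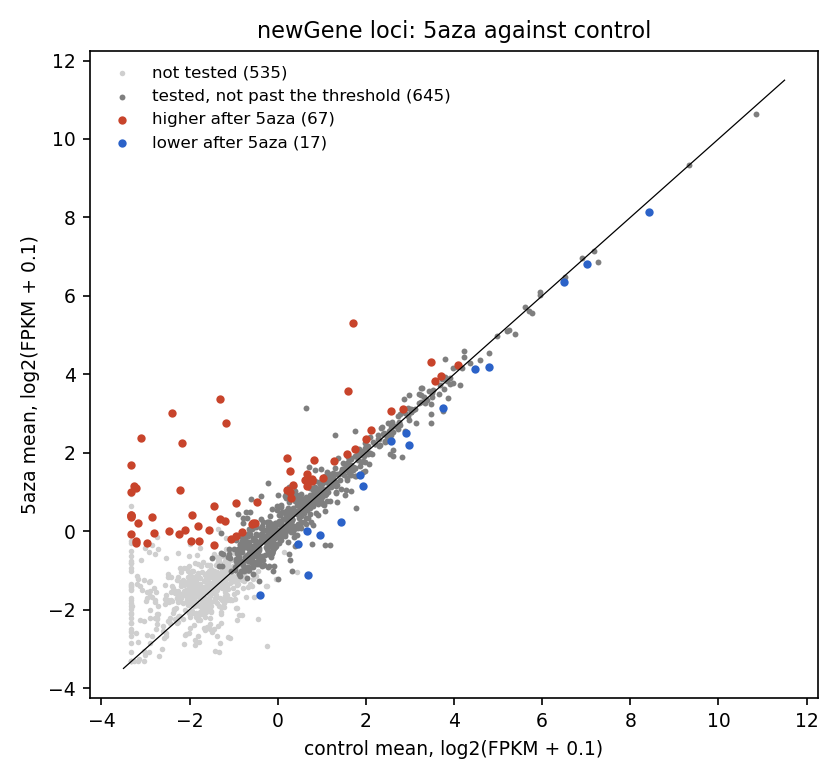
Mean 5aza level against mean control level of each of the 1264 newGene loci, both as log2(FPKM + 0.1), with the line of equal levels (red, 67 higher after 5aza; blue, 17 lower; dark grey, tested and not past the threshold; light grey, 535 not tested). The loci farthest above the line have control means near 0 FPKM, and the blue points lie closer to the line.

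Sorted by control mean, 137 newGene loci (10.8%) were under 0.1 FPKM, 691 (54.7%) at 0.1 to 1 FPKM, 326 (25.8%) at 1 to 5 FPKM and 110 (8.70%) at 5 FPKM or more. Ensembl genes were spread otherwise, with 56.1% at 5 FPKM or more, 10.3% at 0.1 to 1 FPKM and 19.4% under 0.1 FPKM. The control values that place a locus in its class also enter its difference from 5aza, so the classes are a description.

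In the class under 0.1 FPKM, the median newGene level went from 0.0245 to 0.206 FPKM, and 123 of 137 loci had the higher mean after 5aza. In 62 of the 137 (45.3%), all 5aza libraries were above all control libraries, and in 0 all were below. The same held in 32.6% and 0.668% of 2992 Ensembl genes of that class. Only 18 of the 137 were tested. All 18 rose, but a locus this low passed the filter only through its 5aza values, so that count carries no information on the class. Placed by the 5aza mean, 61 loci were under 0.1 FPKM, and of these 1 had all 5aza libraries higher and 6 all lower.

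In the class of 0.1 to 1 FPKM, 277 of 691 newGene loci were tested, and 23 rose and 1 fell (newGene_2983). The share that rose was 8.30%, against 22.1% of 689 tested Ensembl genes of the class. Of these rises, 16 of 23 newGene loci and 69 Ensembl genes were under 0.5 FPKM in all control libraries and passed the filter only through 5aza. The fall passed it only through the control libraries. The direction of each of these calls was fixed by passing the filter, so the shares include calls that could go 1 way only. In the class of 1 to 5 FPKM, 20 of 324 tested newGene loci rose (6.17%) and 7 fell (2.16%), against 11.1% and 1.91% of 2196 Ensembl genes. At 5 FPKM or more, 6 of 110 rose (5.45%) and 9 fell (8.18%), against 8.91% and 18% of 8672 Ensembl genes. The difference between newGene loci and Ensembl genes in these shares was not tested.

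**Figure D3:**
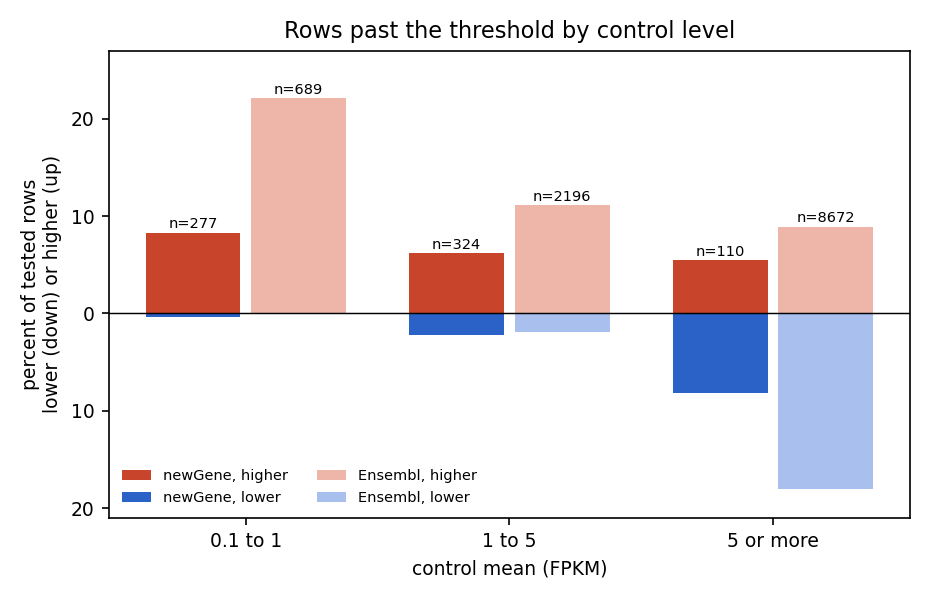
Percent of tested rows past the threshold in 3 classes of the control mean in FPKM, upward bars for rows higher after 5aza and downward bars for rows lower (dark, newGene; pale, Ensembl; n, rows tested). The newGene bars for higher rows fall from 8.30% to 5.45% across the classes, below the Ensembl bars of 22.1% to 8.91%, and falls are most frequent at 5 FPKM or more in both. In the lowest class shown, 16 of the 23 newGene rises passed the filter only through 5aza.

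Most loci kept their class. After 5aza, 34 of the 137 loci under 0.1 FPKM remained in that class, 89 had a mean of 0.1 to 1 FPKM, 12 of 1 to 5 FPKM and 2 of 5 FPKM or more. In the opposite direction, 27 loci went from 0.1 to 1 FPKM to under 0.1 FPKM. Of 691 loci at 0.1 to 1 FPKM, 613 stayed, 49 moved to 1 to 5 FPKM and 2 to 5 FPKM or more. From 1 to 5 FPKM, 37 moved down and 9 up, and from 5 FPKM or more, 9 moved down and 101 stayed.

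The rise with the smallest adjusted p-value was that of newGene_956. It had 3.38, 2.86 and 3.21 FPKM in control cells and 38.2, 38.9 and 40.9 FPKM after 5aza. The groups lay far apart, with little spread within each. The means were 3.15 ± 0.262 and 39.3 ± 1.38 FPKM (SD, n = 3), and the log2 change was 3.60 (SE 0.069, limma adjusted p = 3.83e-07). It was the only rise from a control mean of 1 FPKM or more among the 13 loci drawn in the plot of the largest rises. newGene_3510 had 0.2996, 0.306 and 0.421 FPKM in control cells and 6.54, 6.78 and 6.76 FPKM after 5aza, a log2 change of 3.95 (SE 0.14, limma adjusted p = 3.14e-06). newGene_694 had 0.0236, 0.00781 and 0.0160 FPKM in control cells and 4.60, 5.10 and 5.49 FPKM after 5aza, a log2 change of 5.48 (SE 0.17, limma adjusted p = 2.52e-06). These 3 loci had the smallest adjusted p-values among newGene rises, and in each of them every 5aza library was above every control library. newGene_3510 and newGene_694 passed the filter only through their 5aza values, which fixed that order for both.

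The largest log2 changes belonged to loci near 0 in control cells, where the size depends on the pseudocount. newGene_2590 was listed at 0 in control replicates 1 and 2 and at 0.267 FPKM in replicate 3, and had 7.71, 10.6 and 5.58 FPKM after 5aza (log2 change 5.66, SE 0.51, limma adjusted p = 4.08e-04). Its log2 change ranged from 3.01 to 7.99 over the alternatives. newGene_2865 had 0.730 and 0.187 FPKM in control replicates 1 and 2 and was listed at 0 in replicate 3, and had 10.9, 8.53 and 11.2 FPKM after 5aza (log2 change 5.15, SE 0.65, limma adjusted p = 0.00174). The 5aza libraries were all far above the highest control value of both loci. For newGene_2590, passing the filter fixed the order of the groups but not their distance. newGene_3369 had 0.189, 0.176 and 0 FPKM in control cells and 4.22, 3.69 and 6.08 FPKM after 5aza (log2 change 4.54, SE 0.42, limma adjusted p = 4.42e-04).

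**Figure D4:**
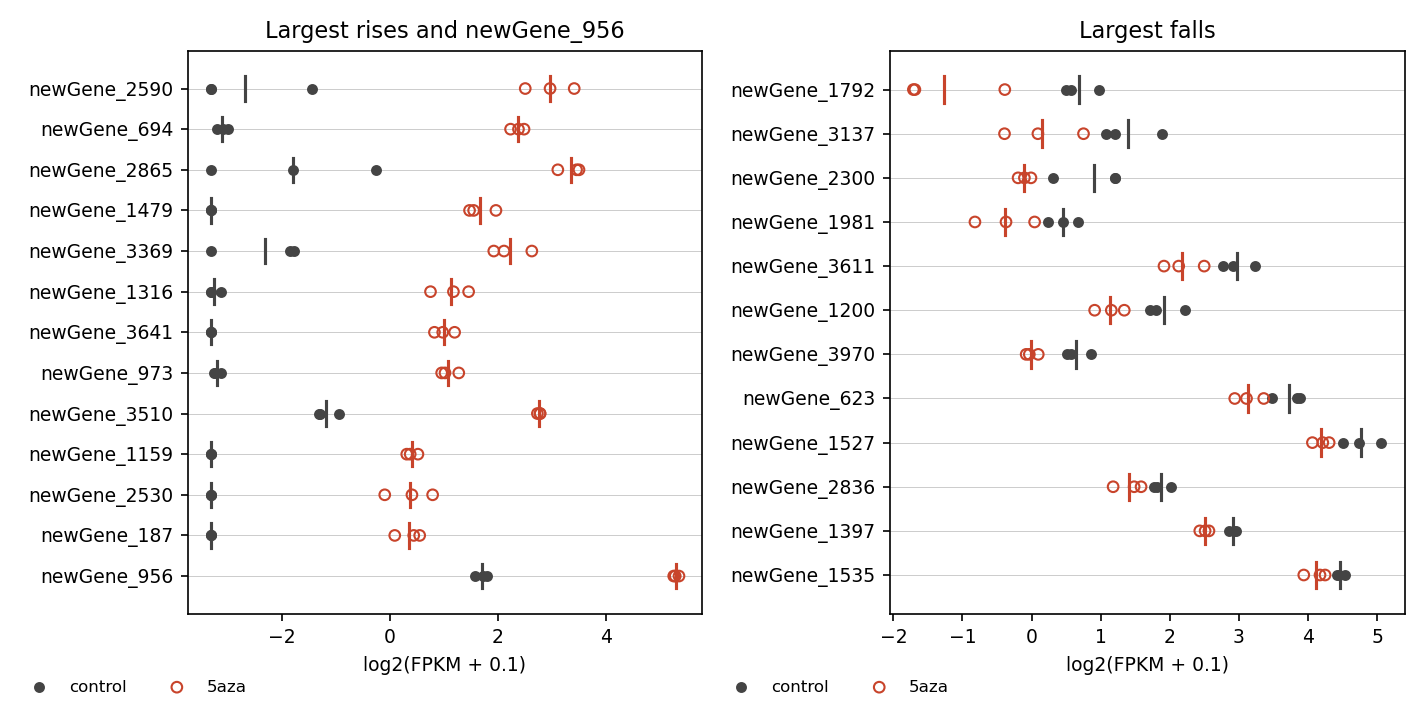
Values of each library as log2(FPKM + 0.1) for the 12 largest newGene rises with newGene_956 (left) and the 12 largest falls (right), among called loci whose higher group mean is at least 1 FPKM; filled points, control; open points, 5aza; vertical bars, the mean of the 3 log2 values. At left the groups are separated by several log2 units and many control points sit at the lower limit set by 0 FPKM, whereas at right the groups lie within 2 log2 units of each other.

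A switch from under 0.1 FPKM in all control libraries to 1 FPKM or more in all 5aza libraries was seen in 6 of 1264 newGene loci (0.475%), where 0.173% of all identifiers met it. The reverse was seen in 0 newGene loci and 0 Ensembl genes. The 6 loci were newGene_694, newGene_1479, newGene_1316, newGene_973, newGene_3641 and newGene_1159. newGene_1479 was listed at 0 in every control library and had 2.82, 2.67 and 3.80 FPKM after 5aza (limma adjusted p = 1.24e-05). newGene_3641 was also listed at 0 in every control library and had 2.19, 1.87 and 1.67 FPKM (limma adjusted p = 2.92e-05). The third such locus, newGene_1159, had 1.19, 1.33 and 1.14 FPKM (limma adjusted p = 1.01e-04).

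The other 2 switched loci were not at 0 in every control library. newGene_1316 was listed at 0, 0.0136 and 0 FPKM in control cells and had 2.16, 1.58 and 2.64 FPKM after 5aza (limma adjusted p = 5.31e-05). newGene_973 had 0.0137, 0.00396 and 0.00489 FPKM in control cells and 1.84, 1.92 and 2.32 FPKM after 5aza (limma adjusted p = 2.45e-05). Of the 32 loci listed at 0 in all control libraries, 7 reached the filter, which a locus at 0 in all control libraries can do only when all 5aza libraries are at 0.5 FPKM or more, so that these 7 rose was set by the filter. Among them, newGene_2530 had 1.63, 0.833 and 1.22 FPKM after 5aza and newGene_187 had 1.36, 0.961 and 1.25 FPKM (limma adjusted p = 2.97e-04 and 1.57e-04). Over all 32, the median 5aza mean was 0.445 FPKM and the highest 3.10 FPKM.

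Of the 110 newGene loci with a control mean of 5 FPKM or more, 6 rose, each by less than 2-fold. The largest of these 6 rises was newGene_4040, with 9.21, 12.9 and 10.9 FPKM in control cells and 18.9, 17.3 and 23.3 FPKM after 5aza (log2 change 0.85, SE 0.14, limma adjusted p = 0.00540). For newGene_90 the means were 5.85 ± 0.317 in control and 8.25 ± 0.738 FPKM in 5aza cells (SD, n = 3; log2 change 0.49, limma adjusted p = 0.00558). For newGene_3142 they were 12.9 ± 0.692 and 15.5 ± 0.356 FPKM (SD, n = 3; log2 change 0.27, limma adjusted p = 0.0107). A rise with a wide spread, picked after its values were seen, was that of newGene_2832. It had 3.38, 1.53 and 3.80 FPKM in control cells and 16.2, 14.6 and 4.70 FPKM after 5aza, so that the third 5aza library lay close to the control range. Its call (limma adjusted p = 0.0308) was lost in 5 of 16 alternatives, without control replicate 1 or 2, without 5aza replicate 1 or 2 and with no variance trend (adjusted p between 0.00842 and 0.0977 over the alternatives).

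The median control mean of the 17 fallen loci was 5.86 FPKM. That of the 67 that rose was 0.377 FPKM. Of these 67, 34 were under 0.5 FPKM in all control libraries and passed the filter only through 5aza. newGene_1792 fell most, with 1.38, 1.86 and 1.32 FPKM in control cells and 0.210, 0.665 and 0.206 FPKM after 5aza (log2 change -1.94, SE 0.37, limma adjusted p = 0.00904). 5aza replicate 2 was well above the other treated libraries yet below every control library. newGene_2983, outside the naming rule because both means are under 1 FPKM and chosen after its values were seen, had 0.701, 0.610 and 0.643 FPKM in control cells and 0.204, 0.303 and 0.159 FPKM after 5aza (log2 change -1.25, SE 0.25, limma adjusted p = 0.0113). Both calls held under every alternative that tested them.

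newGene_3137 had 2.21, 3.62 and 2.00 FPKM in control cells and 0.965, 0.662 and 1.58 FPKM after 5aza (log2 change -1.24). newGene_2300 had 2.21, 2.20 and 1.14 FPKM in control cells and 0.831, 0.894 and 0.773 FPKM after 5aza (log2 change -1.01). For both, 1 library carries much of the spread: control replicate 2 of newGene_3137 and control replicate 3 of newGene_2300. Their limma adjusted p-values were 0.0283 and 0.0246, and neither call was stable. That of newGene_3137 was lost without control replicate 1 or 2, 5aza replicate 1 or 2, with no variance trend and with a replicate block (adjusted p up to 0.0849). That of newGene_2300 was lost without any single library other than control replicate 3 (adjusted p up to 0.0839).

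Among loci of at least 5 FPKM in control cells, newGene_3611 fell most, with 6.70, 9.32 and 7.40 FPKM in control cells and 4.27, 5.55 and 3.67 FPKM after 5aza (log2 change -0.79, SE 0.17, limma adjusted p = 0.0144). newGene_623 had 11.0, 14.2 and 14.6 FPKM and then 10.2, 7.57 and 8.53 FPKM (log2 change -0.59). newGene_1527 had 33.3, 22.5 and 26.6 FPKM and then 16.6, 19.7 and 18.4 FPKM (log2 change -0.57). The groups lie close together in both, and both calls were lost under some alternatives. That of newGene_623 (adjusted p = 0.0178) was lost without control replicate 2 or 3 or 5aza replicate 2 or 3 (adjusted p up to 0.0608). That of newGene_1527 (adjusted p = 0.0194) was lost without 5aza replicate 1 or 3 and with no variance trend (adjusted p up to 0.0616).

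newGene_3969 fell with the smallest adjusted p-value of the 17. It is the third most abundant newGene locus, with 344, 347 and 344 FPKM in control cells and 271, 277 and 292 FPKM after 5aza. The means were 345 ± 1.88 and 280.4 ± 10.8 FPKM (SD, n = 3), a separation far wider than the spread within either group (log2 change -0.30, SE 0.034, limma adjusted p = 0.00107) and a call kept under all 16 alternatives. For newGene_1397, which also fell, the means were 7.44 ± 0.281 and 5.57 ± 0.261 FPKM (SD, n = 3; log2 change -0.41, limma adjusted p = 0.00469), also kept under all 16. For newGene_1200 they were 3.70 ± 0.740 and 2.11 ± 0.326 FPKM (SD, n = 3; log2 change -0.77, limma adjusted p = 0.0144) and kept its call as well.

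The remaining 7 falls were called with adjusted p-values between 0.0111 and 0.0442, and each was lost under at least 1 alternative. newGene_1535 had means of 22.0 and 17.3 FPKM and did not pass once control replicate 1 was left out (adjusted p = 0.0607). newGene_3970 had means of 1.47 and 0.898 FPKM and did not pass once control replicate 2 or 5aza replicate 1 or 2 was left out (up to 0.0714). newGene_1981 went from 1.28 to 0.690 FPKM, a call lost without any single library other than 5aza replicate 3 and under 4 further alternatives (up to 0.135). newGene_2836 went from 3.57 to 2.59 FPKM, a call lost without any single library other than 5aza replicate 2 and under 3 further alternatives (up to 0.127). The other 3 were chosen after their values were seen. newGene_1186 went from 5.86 to 4.85 FPKM and lost its call without any 1 of the 6 libraries and under 2 further alternatives (up to 0.140). newGene_994 had means of 129.9 and 111.7 FPKM, and its call was lost without control replicate 2 or 3 or 5aza replicate 2 or 3, with no variance trend and under the 3 scaling alternatives (up to 0.158). newGene_3658 went from 90.1 to 81.5 FPKM, a call lost under the 3 scaling alternatives (up to 0.165).

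Of the 5 newGene loci with the highest control means, 4 did not pass the threshold and newGene_3969 fell. newGene_1865 had 1429, 2558 and 1529 FPKM in control cells and 1650, 1815 and 1327 FPKM after 5aza. Control replicate 2 stood above the other 5 libraries, and the groups overlapped (log2 fold change -0.16, limma adjusted p = 0.627). newGene_1956 had 674, 645 and 619 FPKM and then 674, 642 and 631 FPKM (log2 fold change 0.01, limma adjusted p = 0.921), and passed under quantile normalization (adjusted p = 0.0125, within 0.0125 to 0.943 over the alternatives). newGene_1348 had 139, 174 and 152 FPKM and then 141, 109 and 97.8 FPKM (log2 fold change -0.43, limma adjusted p = 0.0520), and passed without 5aza replicate 1 (adjusted p = 0.0120, within 0.0120 to 0.146). newGene_483 had means of 145 and 141 FPKM (limma adjusted p = 0.571).

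Replicate libraries spread more at newGene loci than at Ensembl genes of the same level. Over the tested rows, the median residual SD of log2(FPKM + 0.1) was 0.259 for newGene loci and 0.0771 for Ensembl genes. In loci with a mean of 1 to 2 FPKM it was 0.263 (198 newGene loci) and 0.201 (757 Ensembl genes). At 5 to 10 FPKM it was 0.153 (56 newGene loci) and 0.0918 (1863 Ensembl genes), and at 10 to 20 FPKM 0.157 (34 newGene loci) and 0.0706 (2417 Ensembl genes). The median was higher for newGene loci in each of 7 level bins.

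**Figure D5:**
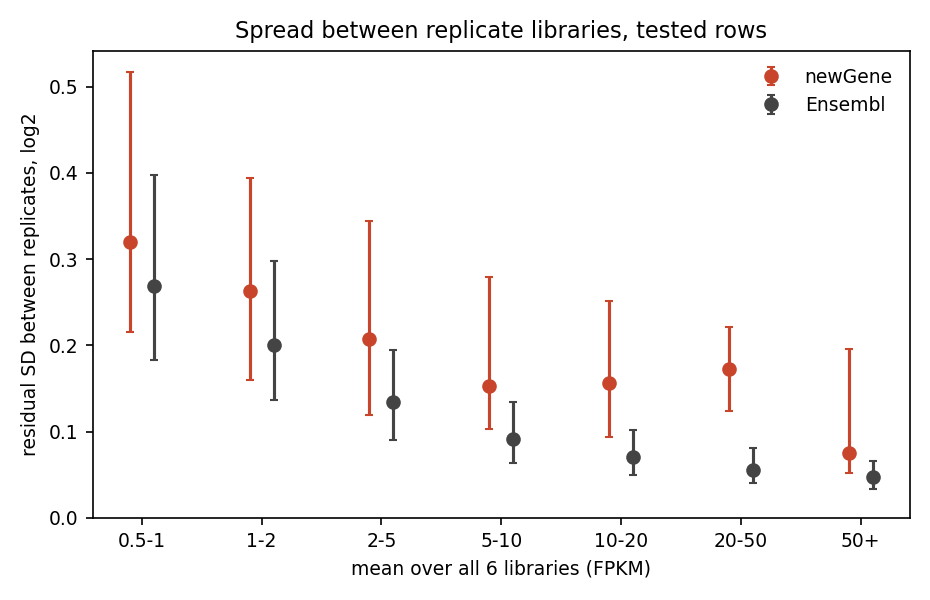
Residual SD between replicate libraries, in log2(FPKM + 0.1) units, for tested newGene loci (red) and Ensembl genes (dark grey) in 7 bins of the mean FPKM over all 6 libraries (points, median; bars, 25th to 75th percentile). The newGene median lies above the Ensembl median in every bin, with 0.319 against 0.269 at 0.5 to 1 FPKM and 0.173 against 0.0556 at 20 to 50 FPKM, where only 10 newGene loci were tested.

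The shares of calls were also set side by side in bins of the mean over all 6 libraries. At a mean of 2 to 5 FPKM, 9.63% of 135 newGene loci rose and 1.48% fell, against 11.9% and 2.36% of 1484 Ensembl genes. At 5 to 10 FPKM, 8.93% of newGene loci rose and 5.36% fell, against 9.66% and 5.37% of Ensembl genes. At 0.5 to 1 FPKM the shares that rose were 8.94% of 235 newGene loci and 18.3% of 569 Ensembl genes, and at 1 to 2 FPKM 6.57% of 198 and 12.5% of 757. These lay farther apart than the 9.19% and 10.7% of the whole table. The bins include rows under 0.5 FPKM in all control libraries, which passed the filter only through 5aza. Their direction was fixed by the filter, as for newGene_1159 and newGene_3641 at 0.5 to 1 FPKM. Over all tested rows, 34 of the 67 newGene rises and 143 of the 1243 Ensembl rises were of this kind. At 50 FPKM or more, 3 of 14 newGene loci fell (21.4%), against 35.1% of 1993 Ensembl genes. Only 114 newGene loci had a mean of 5 FPKM or more, against 8732 Ensembl genes, and falls were most frequent at such levels in both kinds of row.

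Of the 535 newGene loci that were not tested, all had means under 1 FPKM over the 6 libraries, with a median control mean of 0.197 FPKM and a median 5aza mean of 0.260 FPKM. In 80 of them (15%) all 5aza libraries were above all control libraries, where 26.1% of all untested rows were. In 24 (4.49%) all were below, where 1.65% of all untested rows were. Untested Ensembl genes had 27.6% and 1.26%. These loci passed no test, and the difference from Ensembl genes was not tested.

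The numbers in the names ran from 4 to 5340, so most numbers of that range are not used in the table. The sources used here do not say whether the numbers follow position in the genome. Over 85 pairs of tested loci with consecutive numbers, the log2 fold changes correlated at Pearson's r of 0.23 and Spearman's rho of 0.21. At number differences of 2, 3, 5, 10, 50 and 100, over 95 to 114 pairs each, r lay between -0.12 and 0.07. In 4 consecutive pairs both loci were called, 3 pairs rising and 1 falling, and 0 pairs went in opposite directions. At a difference of 10, 4 pairs rose together and 1 went in opposite directions, so pairs that rise together are not limited to consecutive numbers. Without the 4 consecutive pairs, r was 0.02 and rho 0.11, a drop that removing pairs called in the same direction partly builds in. The loci of a pair share all 6 libraries.

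These 4 pairs, chosen after their values were seen, were newGene_3368 with newGene_3369, newGene_3509 with newGene_3510, newGene_2306 with newGene_2307, and newGene_3969 with newGene_3970. newGene_3368 had 0, 0.0153 and 0.00549 FPKM in control cells and 0.741, 0.753 and 0.646 FPKM after 5aza (limma adjusted p = 5.18e-04). Its partner newGene_3369 rose to 4.66 FPKM. newGene_3509 had 0.327, 0.402 and 0.530 FPKM in control cells and 0.906, 0.710 and 0.829 FPKM after 5aza (log2 change 0.83), a much smaller rise than that of newGene_3510. newGene_2306 rose from 1.104 to 2.78 FPKM and newGene_2307 from 1.44 to 2.38 FPKM. The call of newGene_2307 (limma adjusted p = 0.0471) was lost in 11 of 16 alternatives, without any single library other than 5aza replicate 3 among them (adjusted p up to 0.125). That of newGene_3509 (limma adjusted p = 0.0308) was lost in 8 of 15, without any single library other than control replicate 3 among them (up to 0.197). At a number difference of 2, newGene_1316 and newGene_1318 (also chosen after its values were seen) both rose from near 0: newGene_1318 was listed at 0 in control cells and had 0.882, 0.995 and 0.674 FPKM after 5aza.

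The way the values were written separated the loci further. In 635 newGene loci (50.2%) no library's value had more than 6 significant digits, whereas the rest had longer values in at least 1 library. Among Ensembl genes, values of at most 6 digits were found in 74.4% of 1292 genes with 1 annotated transcript and in 7.49% of 14148 genes with several. The newGene loci with short values had a median control mean of 0.279 FPKM, and 24 of 226 tested rose and 5 fell. Those with longer values had a median of 1.098 FPKM, and 43 of 503 tested rose and 12 fell. The median log2 fold change was 0.09 in the first and 0.07 in the second.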

How the data were processed

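The authors deposited 1 table of FPKM values per gene for all 6 libraries; FPKM is named in the table's title, and the program that made the values and how the newGene loci were assembled are not stated in the sources used here. Among the tools in the submitters' processing notes are the aligner STAR (2.5.1b) and the counter HTSeq (0.6.0), and a human build (GRCh38) stands there beside a rat one (Rnor_6.0), without a role. Columns were matched to samples through the sample descriptions. Where an Ensembl identifier was repeated (11 identifiers), the copy of higher mean was used; 0 newGene identifiers are repeated. Gene types came from GENCODE release 29.

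Values entered on the log2(FPKM + 0.1) scale without further scaling, and rows with at least 0.5 FPKM in at least 3 libraries entered the fit, made by limma 3.58.1 under R 4.3.3 (eBayes with a variance trend, two-sided, Benjamini-Hochberg adjustment over all 12360 rows). On simulated data with 200 changed rows among those 12360, 80% and 82% of log2 changes of -1 and 1 were recovered, and 4.32% of calls were false. These rates cover all rows, of which 11631 are Ensembl genes. They were not computed for newGene loci, whose median residual SD was 0.259 against 0.0771 for Ensembl genes. A fold change on this scale understates changes near 0 FPKM.

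The alternatives were 2 other pseudocounts, 3 other filters, 3 scalings, no variance trend, a replicate block and leaving out each library in turn. The members, classes and tests were chosen with earlier results of these data known. Named loci were the 12 largest rises and 12 largest falls past the threshold with groups that do not overlap and a higher mean of at least 1 FPKM; the 5 highest control means and 3 highest 5aza means; the 3 rises and 3 falls of smallest adjusted p; 5 switched-on loci; and the 3 largest rises and falls from a control mean of at least 5 FPKM.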

Additional observations from a re-analysis of the deposited data

How the results depend on the processing

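The counts of rises and falls were recomputed under 16 alternatives. Rises numbered 35 with a filter on a mean of at least 1 FPKM and 103 with a filter of 0.1 FPKM in 3 libraries, since these test 447 and 1184 newGene loci in place of 729. Falls numbered 44 under quantile normalization and 33 with the expression trend removed, against 17; the cause was not tested. Scaling each library to the same summed FPKM of Ensembl genes gave 87 rises and 12 falls, and moved the median log2 fold change of all rows from -0.01 to 0.07. Leaving out 1 library in turn gave 51 to 67 rises and 13 to 18 falls, but only 9 to 12 of the 17 falls were among them. Of the 67 rises, 47 to 67 were called under each alternative other than the filter on a mean of at least 1 FPKM, which kept 35, and 0 of the 84 calls changed sign under any alternative. The labels do not say whether same-numbered libraries share more than the number. Their deviations from the group means correlated at r of 0.05, 0.08 and 0.07, against -0.09 to 0.02 for libraries of unlike number. The deviations within a group sum to 0, so a higher r at the same number forces lower ones elsewhere. The contrast is therefore partly built in. Each library correlated best with its own number, and the replicate block gave 69 rises and 25 falls. With classes set by the mean over all 6 libraries in place of the control mean, 55, 762, 333 and 114 newGene loci lay in the 4 classes, and 0, 31, 26 and 10 rose. These rises include the 34 that passed the filter only through 5aza. Leaving the 10 most abundant Ensembl genes out of the total put the newGene share at 0.948% to 1.15% in control and 1.01% to 1.09% in 5aza libraries. The unknown depth and length of each locus limit how far values under 0.5 FPKM can be read.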
